A study of Homo sapiens with 1 sample.

Results

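Short nuclear genes with a single exon of about 120 to 350 bases were examined in the negative control of a PAR-CLIP experiment. These genes were taken from the count table of the T2T-CHM13 v1.1 annotation by 3 properties, a chromosome other than the mitochondrial one, 1 exon, and an exon length within that range, whose exact lower limit is given with the processing. The rule used no counts, and it found 6552 members among the 63494 genes of the table. PAR-CLIP links RNA to the proteins that bind it by long-wave UV light after the cells have taken up a thiolated nucleoside. The control was 1 library of HEK293T cells, a human embryonic kidney line, that stably carried the SFB empty vector, a tag made of an S-protein-binding, a FLAG and a streptavidin-binding part with no protein fused to it. The cells received 0.1 mM thioguanosine and 0.4 J per cm2 of light at 365 nm, and RNA was recovered on streptavidin and then FLAG resin. The libraries of tagged BRCA1 BRCT and BARD1 were not analysed here, so there was no second condition and no replicate, and each value describes this library alone. The control serves to measure RNA that is recovered without a bound protein of interest.

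Genes of this size include most classes of small stable RNA. The 5S rRNA is a part of the large ribosomal subunit made by RNA polymerase III, and 5.8S rRNA is cut from the pre-rRNA of RNA polymerase I. U1, U2, U4 and U5 are RNAs of the spliceosome, box H/ACA RNAs guide the conversion of uridine to pseudouridine, and U3 acts in the processing of pre-rRNA. The 7SL RNA is the core of the signal recognition particle, 7SK RNA holds a transcription elongation factor inactive, and RMRP and RPPH1 are the RNAs of RNase MRP and RNase P. Copies of several of these RNAs are spread through the genome as pseudogenes, and reads of one copy can match others.

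The identifiers of the table carry no names, and 0 of 63494 were found in the gene name tables at hand, so members are described by position and length, and HEK293T markers could not be checked. As a guide to size only, the members were set beside RefSeq genes of GRCh38.p14 on the same chromosome with exactly the same length. A shared length does not name a member, since several RefSeq genes often share it. No genome of the build used by the authors was at hand, and no sequence is shown.

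Few of the members were detected. Of the 6552 members, 648 had at least 3 reads, the minimum for detection, which is 9.89% (95% Wilson interval over genes 9.19% to 10.6%), whereas 33.5% of all nuclear genes passed it. The members at 0 numbered 5669. At 10 reads, 364 members passed, 5.56%, beside 23.9% of all nuclear genes. Genes next in size gave similar shares, with 9.29% (8.54% to 10.1%) of the 5273 nuclear single-exon genes that run from 60 bases up to the lower limit detected. The share was 16.3% (15.7% to 17.0%) in the 12887 nuclear single-exon genes over 350 bases. Among the 1540 nuclear genes that reached the same exon length with several exons, 4.94% (3.96% to 6.13%) were detected. Detected members had a median of 10 reads against 18 in all detected nuclear genes. A member at 0 may hold up to 3 reads, 3.7e-05% of gene reads. These intervals take genes as the units and cover no variation between libraries.

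The members held 103933 of the 6250026 reads on nuclear genes, 1.66% (95% Wilson interval 1.65% to 1.67%). One gene outside the length range held 3882832 of these nuclear reads, and without it the share of the members was 4.39%. At the upper end, 99 members (1.51%) had 100 or more reads against 4.64% of all nuclear genes, and 18 members (0.275%) had 1000 or more against 0.389%.

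**Figure D1:**
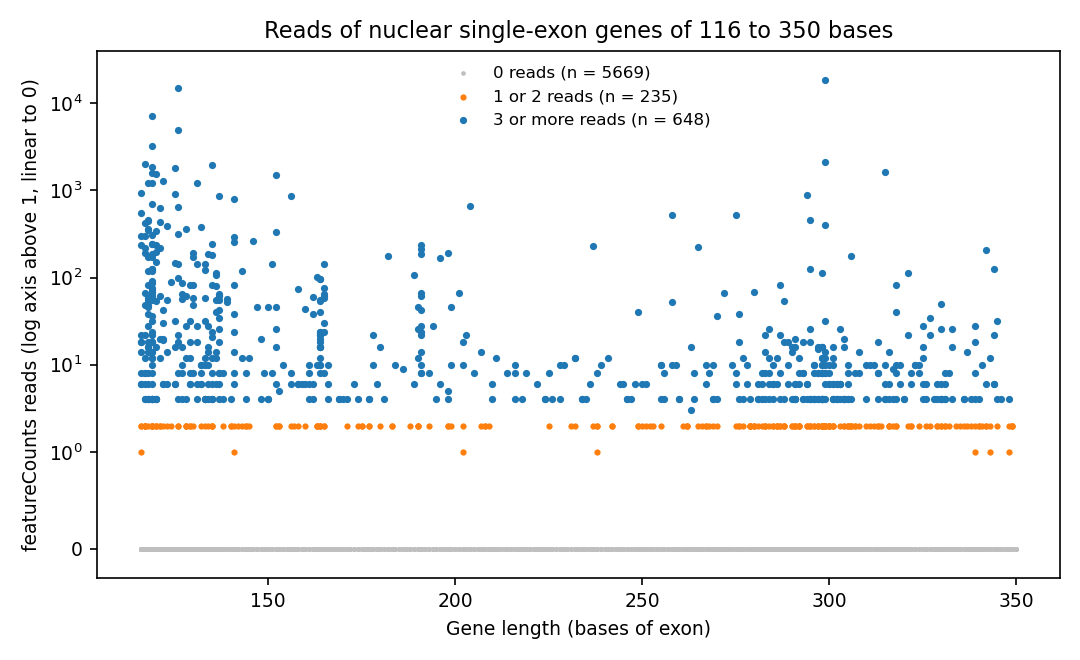
Reads counted by featureCounts on each of the 6552 members (log axis above 1, linear to 0) against its exon length in bases, with 1 point per gene. Members with high counts crowd below 141 bases, while the highest point of all stands at 299 bases.

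The reads were concentrated on very few members. The highest member held 17.8% of all member reads (95% Wilson interval 17.6% to 18.1%), the highest 2 held 32.1%, the highest 10 held 56.2%, and the highest 100 held 90.8%. As few as 7 members held 50% of the reads and 93 held 90%. Without the highest member, 11 members were needed for 50%. When reads were divided by exon length, 9 of the 10 highest members were among the 10 highest.

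**Figure D2:**
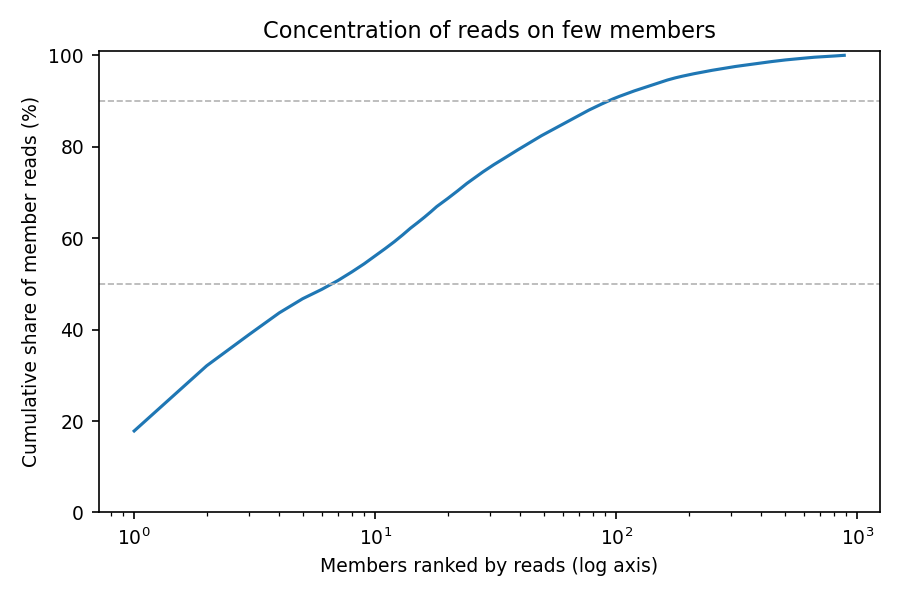
Cumulative share of member reads (percent) over members ranked from the highest count (log axis), with dashed lines at 50% and 90%. The curve passes 50% at 7 members and 90% at 93.

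The highest member and the sixth had the same length and lay on the same chromosome. CHM13_G0016418, on the plus strand at chr14:43784832-43785130, is 299 bases long and had 18523 reads. The sixth, on the minus strand at chr14:44058839-44059137, had 2124 reads. These 2 held 97.6% of the reads on the 63 members of 299 bases, and the third of that length had 404. RefSeq lists 7 genes of 299 bases on chromosome 14, of which 6 carry 7SL symbols.

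Another pair, the members with the next highest count and with 4920 reads, also shared length and chromosome. CHM13_G0053413, on the minus strand at chr8:32472947-32473072, is 126 bases long and had 14832 reads, 14.3% of member reads. The other lay on the plus strand at chr8:59879795-59879920 and had 4920. They held 94.0% of the reads on the 58 members of 126 bases, and the third had 640. RefSeq lists 3 genes of 126 bases on chromosome 8, of which 2 carry 5S pseudogene symbols.

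Members of 119 bases, close to the length of mature 5S rRNA, gave 5 of the 20 highest. The member on the plus strand at chrX:68105891-68106009 had 7106 reads. The one on the plus strand at chr6:4296935-4297053 had 3209, and the one on the minus strand at chr7:153766366-153766484 had 1846. These values differed although the length was the same. The member on the minus strand at chr1:227813862-227813980 had 1563 reads and lay within a tandem array, which is described later. The fifth, on the minus strand at chr3:184627430-184627548, had 1230.

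Another 7 of the 20 highest were shorter than 126 bases. They had 2008 reads at chr2:212016172-212016288 (plus strand), 1826 at chr3:153939149-153939273 (plus strand) and 1554 at chr7:115928488-115928607 (minus strand). The member at chr6:121874084-121874205 (plus strand) had 1272 reads, and the one at chr7:130009610-130009727 (plus strand) had 1202. The lowest values were 934 at chr16:90105988-90106103 (minus strand), the highest member of the shortest length, and 910 at chr12:118817129-118817253 (plus strand). All 7 shared chromosome and length with at least 1 RefSeq gene of the 5S family. Size itself favours such matches. Of the 255 nuclear RefSeq genes of this family, 192 and 59 lie in the ranges of the 2 shortest length classes described below.

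The remaining 4 of the 20 were of other sizes. The member of 135 bases at chr12:28377808-28377942 (plus strand) had 1964 reads and the member of 315 bases at chr4:96030070-96030384 (plus strand) had 1630. Those of 152 bases at chr20:29956145-29956296 (minus strand) and 131 bases at chr1:173279272-173279402 (plus strand) had 1516 and 1218. Together, 16 of the 20 highest members were shorter than 140 bases.

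By length class, detection was most frequent in the shortest members. The members were divided into 9 length classes, with the bounds given with the processing, and length alone names no gene. The share of members detected was 24.0% (95% Wilson interval 20.4% to 28.0%) in the shortest class, in whose range RefSeq lists 192 genes of the 5S family and 14 of U5. It was 16.4% (13.8% to 19.5%) in the second class, which ends below 140 bases and whose range holds 145 box H/ACA and 59 5S genes of RefSeq. In the third, the fourth and the fifth class, which together reach from 140 to 200 bases, it was 9.82%, 8.44% and 8.24%. The fourth class holds 222 members of 157 bases without reads, described later, and without these the share was 12.9% (10.04% to 16.5%). The lowest share, 4.37% (3.25% to 5.85%), was found in the class that ends at 250 bases, where 7SK copies are the most frequent of the RefSeq families (105 genes). In the class that ends at 290 bases it was 6.72% (5.38% to 8.37%), in that which ends at 310 bases 11.6% (9.65% to 13.8%), and in the longest 7.79% (6.30% to 9.59%). The ranges that end at 290 and 310 bases hold 264 and 353 RefSeq genes of the 7SL family. At 3 reads the class that ends at 310 bases stood above both of its neighbours without overlap of the intervals. With a minimum of 10 reads it did not, with 4.30% against 3.04% and 3.21%, nor with 3 STAR pairs, with 7.72% (6.15% to 9.64%) against 4.88% (3.75% to 6.33%) and 5.26% (4.05% to 6.80%).

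The reads lay mostly in 3 of the classes, in part on single genes. The shortest class held 31.7% of member reads and the second 31.0%, although they made up 7.43% and 9.86% of the members. In the second class 46.1% of the reads lay on the highest member and 61.4% on the 2 members of 126 bases named before, which matched RefSeq genes of the 5S family and of U6atac or U4atac by length. The class that ends at 310 bases held 22.8%, of which 78.1% lay on its highest member. In the shortest class, the highest member held 21.6% of the reads of the class and 40 members had 100 or more reads. The other 6 classes held between 1.28% and 4.05% of member reads each. Their highest members were those of 152 and 315 bases named before and 4 others, all on the plus strand. These had 866 reads at chr7:150123720-150123875 (the fourth class), 238 at chr15:93510420-93510610 (the fifth), 670 at chr1:28350515-28350718 (the sixth) and 526 at chr9:89196954-89197211 (the seventh).

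**Figure D3:**
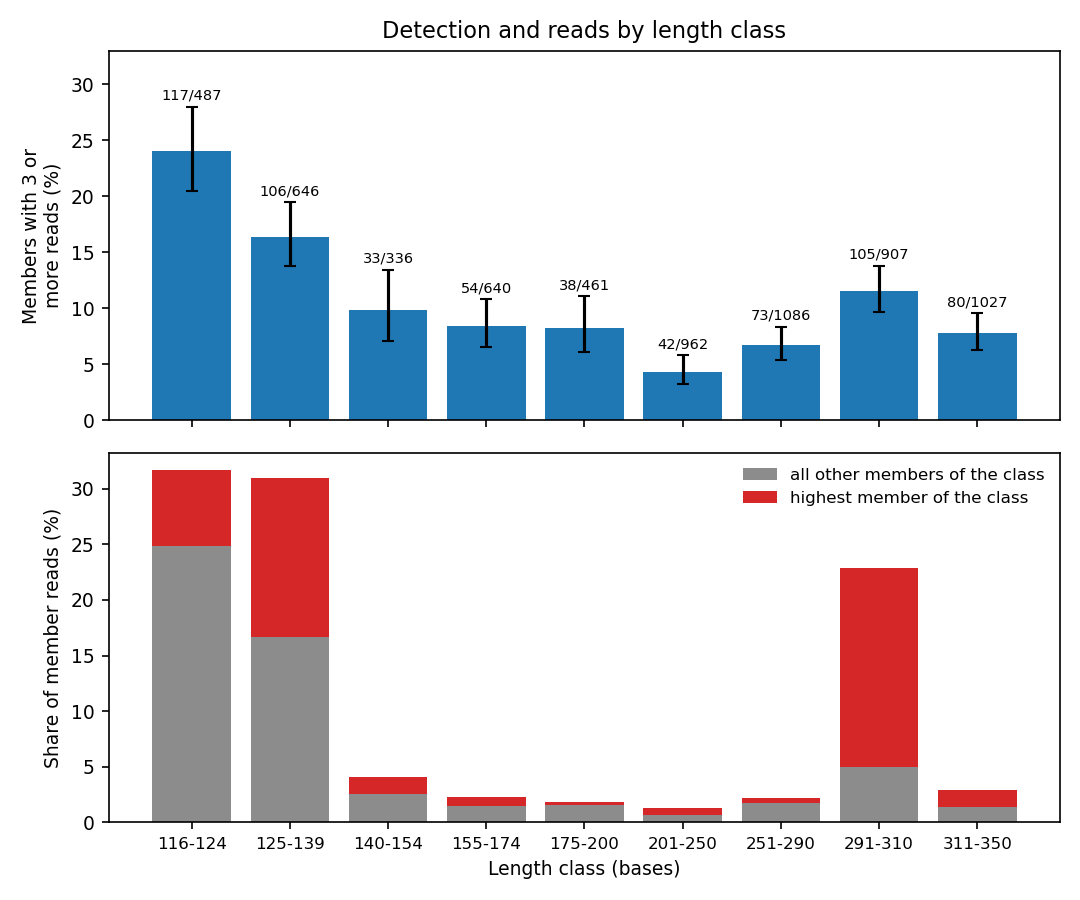
Above, the share of members with 3 or more reads (percent) in 9 length classes in bases, with 95% Wilson intervals as error bars and the detected and total numbers over the bars. Below, the share of member reads (percent) by class, with the part on the highest member of each class in red. The shortest class has the highest detection (24.0%), and 1 gene makes up 78.1% of the reads in the class that ends at 310 bases.

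Single lengths did not all follow their classes. Lengths of 299, 126 and 119 bases held 20.4%, 20.2% and 17.3% of member reads. Of the 45 members of 164 bases, the length of U1, 18 were detected, and of the 32 members of 191 bases, the length of U2, 13. The highest members of 164 and 191 bases had 96 and 238 reads. For the lengths of U4, 9 of 48 members of 141 bases were detected, with 1526 reads in all and 801 on the highest, and 2 of 29 members of 144 bases, with 16 reads. The 31 members of 217 bases, the length of U3, had 0 reads in all.

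By RefSeq genes of equal chromosome and length, 153 members shared both with genes of the 5S family alone. Of these 72 were detected, 47.1% (95% Wilson interval 39.3% to 54.9%), and they held 12720 reads. For the 7SL family alone the numbers were 81 of 647 (12.5%, 10.2% to 15.3%), for 7SK 17 of 250 (6.80%, 4.29% to 10.6%), for U1 25 of 184 (13.6%) and for U2 11 of 49 (22.4%). Box H/ACA RNAs gave 17 of 90 (18.9%, 12.1% to 28.2%). Members that matched no RefSeq gene numbered 2434, of which 5.71% were detected (4.86% to 6.70%). With shared lengths also counted where other families had the same length, 547 members (8.35%) matched a 5S gene. Of these 547, 160 were detected, 29.25%, a lower share than for the 5S family alone. The 547 held 57.5% of member reads. Among the 20 highest members 15 matched a 5S gene, but 16 of the 20 were shorter than 140 bases, where most RefSeq genes of the 5S family lie. The share over members of like length was not taken. Because 1381 members matched several families and held 71.8% of the reads, these numbers do not divide the reads between families.

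Few copies in tandem arrays were detected. An array was taken as at least 5 members of equal length on 1 chromosome, each starting within 10000 bases of the next, and 8 arrays with 216 members were found. In these, 2 members were detected (0.926%), against 10.2% (9.47% to 10.97%) of the 6336 members outside arrays. Their 1581 reads, 1.52% of member reads, lay almost wholly on 1 member. The array with most members lay on the minus strand at chr1:227789288-228022148, with 94 members of 119 bases at a median spacing of 2240 bases, and a shorter run of 10 at the same spacing lay at chr1:227748993-227775968. Human 5S rRNA genes are known to form a tandem array on the long arm of chromosome 1. Only the eighth member of the larger array, the one with 1563 reads, and 1 other with 18 reads were detected. The other 7 arrays, with 122 members, had 0 reads. Outside the arrays, 39 of the 70 members of 119 bases were detected (55.7%, 44.1% to 66.7%). The counts hold pairs aligned to 1 place, and 3510688 pairs (10.4% of the library) that aligned to several places were not assigned to genes, so a low count in an array does not give the level of its RNA.

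The most frequent length among the members was 157 bases, the size of 5.8S rRNA, with 229 members. None was detected, and they had 2 reads in all. On chromosomes 13, 14, 15, 21 and 22, whose short arms carry the pre-rRNA genes, lay 222 of the 229, and 220 of these overlapped an exon of another gene. Neither reads on exons of several genes nor pairs aligned to several places are counted, so the absence of reads here sets no limit on the RNA.

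Members on exons of other genes were rarely detected. Of the 893 members that overlapped an exon of another gene, 16 were detected (1.79%, 95% Wilson interval 1.11% to 2.89%), against 11.2% (10.4% to 12.02%) of the 5659 others. The counters leave out a read on exons of several genes, and 136642 pairs of the library were of this kind. Among members in the span of another gene but on none of its exons, 377 of 2722 were detected (13.9%, 12.6% to 15.2%), and 255 of the 2937 members in no other gene (8.68%, 7.72% to 9.76%). In the former, detection was 15.2% (13.7% to 16.8%) where an overlapping gene itself had at least 3 reads and 10.4% (8.47% to 12.8%) where none had. Of the 377 detected, 46.4% had more reads than any overlapping gene. Among the 64 with 100 or more reads this held for 59, where the minimum itself favours it, and no gene that overlapped one of the 20 highest members had more than 71 reads.

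By chromosome, detection ranged from 3.31% of 181 members on chromosome 22 to 16.3% of 166 on chromosome 20. Chromosomes 14 and 8 held 21.1% and 20.8% of member reads, of which 84.5% and 68.5% lay on the highest member of each. On chromosome 8 the 2 members of 126 bases together held 91.2%. The 855 members with LOFF identifiers, which made up 91 of the 94 genes of the larger array on chromosome 1, were detected in 1.52% of cases, against 11.1% of the 5697 with CHM13 identifiers.

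STAR counted the pairs of each gene by strand, in a same-strand column when the first read lay on the strand of the gene and in an opposite-strand column otherwise. Over all members, 28359 pairs were in the same-strand column and 25479 in the opposite-strand column, 52.7% in the former, and 62.7% without the highest member. Stranded pairs numbered at least 30 in 140 members, in which a median of 27.6% lay in the same-strand column, with 29 members (20.7%) over 90% and 59 (42.1%) under 10%. The median depended on the minimum, with 19.0% at 10 or more stranded pairs and 57.2% at 100 or more. In all nuclear genes with at least 30 pairs, the median was 9.68%, with 11.7% over 90% and 50.5% under 10%. The order turned with depth. At 30 to 99 pairs the 74 members had a median of 5.88%, below the 10.8% of nuclear genes, with 52.7% of members against 48.2% of genes under 10%. At 100 or more and under 300 pairs the medians were 24.6% and 6.43%, and at 300 or more 79.3% and 19.7%. Of the 140 members, the remaining 52 members lay between, so that both columns held a clear part of their pairs.

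The strand also varied with length. The 88 members shorter than 140 bases had a median of 58.0% in the same-strand column, with 21 over 90% and 24 under 10%. In the 52 longer ones, the median was 0.530%, with 8 over 90% and 35 under 10%. The split was not even within these ranges. The shortest class had a median of 70.7% (53 members) and the second 21.2% (35 members), with 14 of the latter under 10%. Of the longer classes, the longest had 36.8% (5 members) and the one that starts at 140 bases 19.7% (9 members), while the other 5 had medians between 0% and 3.94%. Below and above 140 bases, the order was the same within ranges of depth. At 30 to 99 stranded pairs the medians were 40% in 45 short members and 0% in 29 longer ones, and at 100 or more they were 74.5% in 43 and 2.96% in 23. Members that matched a RefSeq gene of the 5S family had a median of 71.3% (72 members), and the others 0.861% (68 members). The match is made by chromosome and length, and most RefSeq genes of this family are shorter than 140 bases. This contrast was therefore not separated from that of short and longer members. The strand share also varied with the context of the member. The median was 2.43% in the 40 members in a gene on the same strand only. It was 64.1% in the 44 members in a gene on the opposite strand only. In the 44 members in no other gene it was 41.6%, and in the 12 in genes on both strands 1.03%. Genes are not replicates, and no test was made of these differences.

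Among the 20 highest members, 15 had most pairs in the same-strand column. The member of 126 bases with 14832 reads had 7353 pairs in the same-strand and 63 in the opposite-strand column, 99.2% in the former (95% Wilson interval 98.9% to 99.3%). The member of 119 bases on chromosome X had 3234 and 337 pairs, 90.6% (89.6% to 91.5%). In contrast, both members of 299 bases on chromosome 14 had nearly all pairs in the opposite-strand column, with 4.93% (4.51% to 5.39%) and 0.761% (0.386% to 1.49%) in the same-strand column, although one lies on the plus and the other on the minus strand. Members of equal length could differ. Of the members of 119 bases, the one on chromosome 6 had 25% (22.9% to 27.2%) and the one on chromosome 1 had 92.0% (89.8% to 93.7%) in the same-strand column. Which column holds the transcripts of a gene depends on the library orientation, which was not tested. The paper names a stranded library kit. Over all nuclear genes with at least 30 stranded pairs, 19.2% of pairs lay in the same-strand column (586915 against 2468730). This pooled share depends on the highest genes. A single nuclear gene had 3882832 reads, and the share without it was not taken. The median over those genes, which gives each gene equal weight, was 9.68%. The 15 members above thus had most pairs in the column that was the smaller in the median of those genes. Reads of another copy or of an overlapping transcript cannot be told apart from reads of the member.

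**Figure D4:**
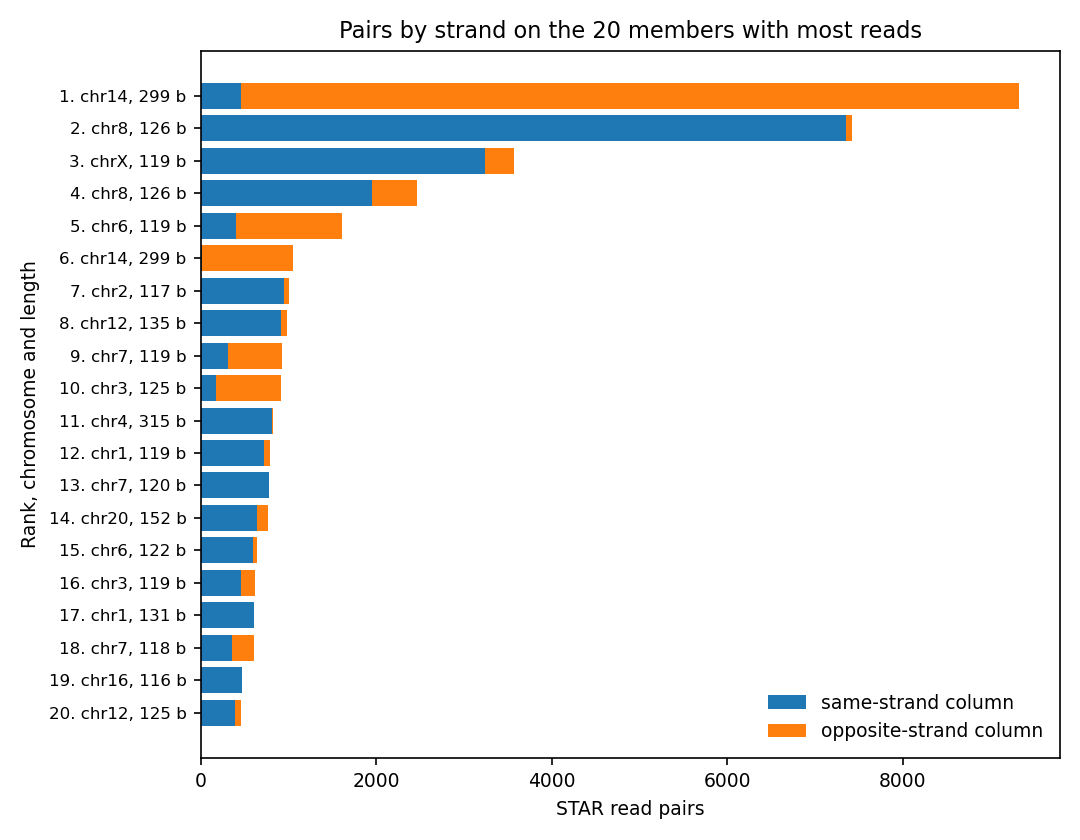
STAR read pairs on the 20 members with most reads, labelled by rank, chromosome and length in bases (b), in the same-strand column (blue) and the opposite-strand column (orange). The 2 members of 299 bases lie almost wholly in the opposite-strand column, while the member of 126 bases at rank 2 lies almost wholly in the same-strand column.

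**Figure D5:**
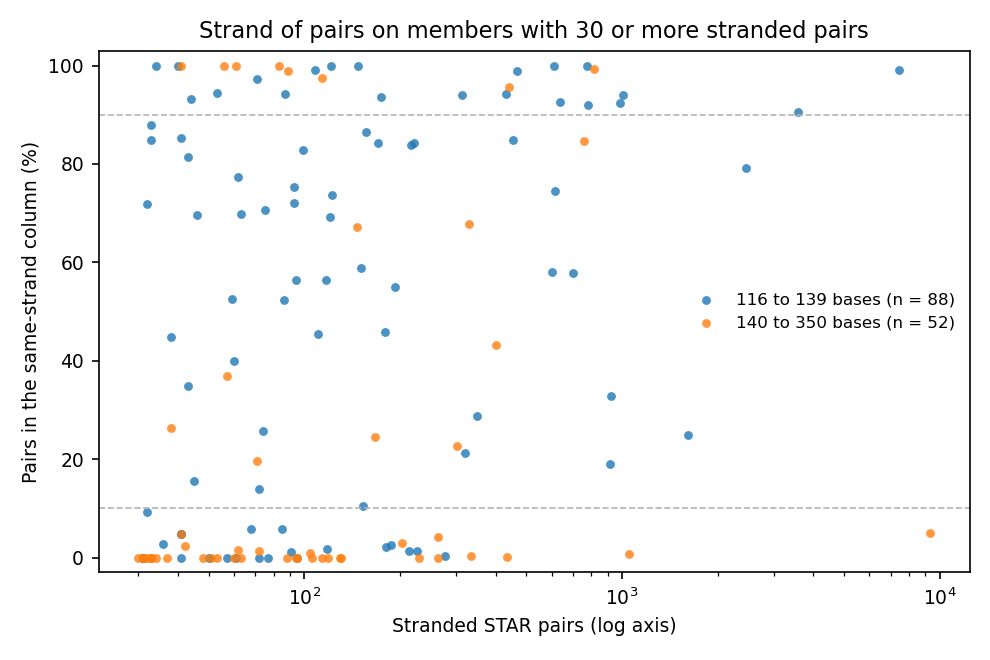
Percent of pairs whose first read lay on the gene's strand, plotted against stranded pairs (log axis), for the 140 members with at least 30 such pairs, with dashed lines at 90% and 10%. Blue points, members shorter than 140 bases, spread over the whole range (median 58.0%), and orange points, longer members, lie mostly near 0 (median 0.530%).

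The length range itself cut through genes with reads at its lower end. The 40 members of the shortest length had 2117 reads and a highest count of 934, while the 49 nuclear single-exon genes that were 1 base shorter had 5567 reads and a highest count of 3084. At the upper end, the 9 members of 350 bases had 0 reads and the 21 genes that were 1 base longer had 14.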

How the data were processed

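One library, labelled SFB empty vector, was used. Per the labels, the authors aligned the reads to T2T-CHM13 with STAR (2.7.6a), and deposited its counts of pairs with a unique place for each gene, both unstranded and by strand. Per the file headers, featureCounts 2.0.2 gave the deposited counts of reads on exons, unstranded, unnormalized and without reads on several genes. The third deposited table, counts along the rDNA unit, was not used.

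The library held 33677888 pairs, of which 4051714 lay on 1 gene. Members were nuclear genes with 1 exon of 116 to 350 bases, selected without use of counts, and the members, length classes and tests were chosen with earlier results of these data known. The length classes were 116 to 124, 125 to 139, 140 to 154, 155 to 174, 175 to 200, 201 to 250, 251 to 290, 291 to 310 and 311 to 350 bases. Detection required 3 reads. Shares carry 95% Wilson intervals, which take genes as the units for detection and reads or pairs for the other shares. The former are a description and the latter cover counting error only. Neither covers variation between libraries. Reads of the members summed to 2.00 times their pairs, and the 2 reads of a pair are not independent, so intervals of read shares are too narrow. The overlap with other genes was taken from the table. RefSeq families were assigned from gene symbols. Members named in the text were the 20 with most reads, the highest of each length class and of the shortest and longest length. With 1 library, no test between conditions was made. Alternatives were STAR pairs, other minimums, reads per kilobase, equal classes and the removal of top or overlapping members. The code, in Python 3.11.15 with numpy 2.4.6, pandas 2.3.3 and matplotlib 3.10.9, was tested on simulated data.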

Additional observations from a re-analysis of the deposited data

How the results depend on the processing

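No paired analysis was possible because the control is a single library. Of 81 alternative values, 38 stayed within the interval of the reported value, within 1.5 times a count or, for the strand shares, within the spread of members. That spread, 0.173% to 84.3% for the median same-strand share, is wide, and the median passed 50% in some settings. The cause was not tested for the others unless the alternative itself removes genes or reads. Detection was 13.5% at 1 read, 364 members or 5.56% at 10 reads, and 7.77% at 3 STAR pairs. Members had 2.00 reads per pair, so 3 pairs was a stricter minimum than 3 reads. Without members on exons of other genes, detection was 11.2%. The share of nuclear gene reads, 1.66%, was 4.39% without the highest nuclear gene and 1.37% without the highest member. The share of the highest member, 17.8%, was 17.2% by reads per kilobase and 17.4% for the next member once it was removed. That of the highest 10, 56.2%, was 55.5% by reads per kilobase, 48.5% without the highest member and 56.5% without members on exons. That of the highest 100, 90.8%, was 91.9%, 88.9% and 91.0% in these settings, and 11 members in place of 7 held 50% without the highest. The share detected in the shortest class, 24.0%, was 14.8% with 5 equal classes, whose first reaches 162 bases. Members under 140 bases held 62.6% of reads, and 74.4% without the highest member of each class, where the share of the class that ends at 310 bases fell from 22.8% to 8.97%. At 10 reads that class (4.30%) no longer stood above its neighbours (3.04% and 3.21%) without overlap of the intervals. At 100 stranded pairs, 30.3% of members were under 10% in the same-strand column in place of 42.1%, and the median was 57.2% in place of 27.6%, with 19.0% at 10 pairs. Pooled over pairs of these members it was 54.4%, and 65.8% without the highest member, a setting added once the data had been seen. Detection at 10 reads was 6.39% in the span of another gene, exons included, from 10.9%, and 4.53% in no other gene, from 8.68%.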
